A study of Mus musculus with 8 samples.

Results

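The 10 genes described here encode 5 annexins (Anxa1, Anxa2, Anxa3, Anxa5 and Anxa6) and 5 S100 proteins (S100a1, S100a4, S100a6, S100a10 and S100a11). They were chosen by gene symbol from the 31053 genes of the count matrices, and each symbol was found once. Transcripts were counted in single cells of SN4741, a clonal mouse line derived from the embryonic substantia nigra of animals in which the tyrosine hydroxylase promoter drove a heat-sensitive viral T antigen. All 8 libraries come from this 1 line with no further genetic change, 4 from cultures at the permissive temperature (37°C, with 10% serum) and 4 from cultures moved to the non-permissive temperature (39°C) with 0.5% serum for 48 hours, starting 24 hours after passage. Temperature and serum therefore changed together, and their effects cannot be told apart. The study describes the line as karyotypically unstable, which limits it as a model of a normal precursor.

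Annexins are cytoplasmic proteins that bind phospholipid membranes when calcium rises, and they take part in vesicle traffic, membrane repair and the link between membranes and the actin cortex. S100 proteins are small calcium sensors of the EF-hand superfamily that work mostly as dimers and change shape on binding calcium to grip partner proteins, several of which are annexins. S100a10 is the exception, since it no longer needs calcium and is held in a tight complex with Anxa2. Both families are abundant in fibroblasts, epithelia and migrating cells, while most neurons of the adult brain hold little of them.

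All 5 S100 genes lie on mouse chromosome 3 (GRCm38 coordinates, GENCODE M21). S100a1 (chr3:90511034-90514392, minus strand), S100a4 (chr3:90603771-90606045, plus strand) and S100a6 (chr3:90612882-90624181, plus strand) belong to a run of 12 S100 genes from S100a1 to S100a9 that spans 184.688 kb, and 6836 bp separate the end of S100a4 from the start of S100a6. S100a11 (chr3:93520488-93526287, plus strand) and S100a10 (chr3:93555080-93564643, plus strand) are neighbours farther along, 28792 bp apart. The annexin genes are scattered: Anxa1 at chr19:20373428-20390944 (minus strand), Anxa2 at chr9:69453620-69491795 (plus strand), Anxa3 at chr5:96793339-96845966 (plus strand), Anxa5 at chr3:36448923-36475894 (minus strand) and Anxa6 at chr11:54979108-55033445 (minus strand). The last bases before the start sites are shown for 3 members described in detail below, the annexin and the S100 gene with the lowest ratio of 39°C to 37°C and the gene of another S100 protein whose promoter shares a motif with Anxa2, and the fourth sequence is the whole 42 bp between the starts of S100a1 and its divergent neighbour S100a13. The sequences come from the RefSeq promoter table of GRCm38.p6 and are written on the plus strand. Capitals mark 3 kinds of motif that a search of both strands found. They are the TATA box, spelled TATAAA, in S100a4. The AP-1 motif, spelled TGAGTCA, stands in capitals in Anxa2 and S100a11. Capitals also mark the GC box, spelled GGGCGG, in the same pair.
Anxa2, chr9:69453470-69453619: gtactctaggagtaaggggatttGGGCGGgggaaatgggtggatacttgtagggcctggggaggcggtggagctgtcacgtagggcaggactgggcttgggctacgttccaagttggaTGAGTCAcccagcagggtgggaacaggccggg
S100a4, chr3:90603620-90603769: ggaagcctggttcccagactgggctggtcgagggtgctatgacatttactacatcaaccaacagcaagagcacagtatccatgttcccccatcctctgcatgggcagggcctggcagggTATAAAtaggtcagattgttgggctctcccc
S100a11, chr3:93520338-93520487: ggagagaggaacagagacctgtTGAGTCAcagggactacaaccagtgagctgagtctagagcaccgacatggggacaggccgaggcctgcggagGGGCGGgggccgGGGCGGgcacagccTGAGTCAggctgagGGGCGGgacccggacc
S100a1 and S100a13 gap, chr3:90514393-90514434: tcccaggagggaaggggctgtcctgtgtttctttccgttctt

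The table held promoters (250 bases before to 50 after the start) for 7 of the 10 members, leaving out Anxa3, Anxa6 and S100a10. The AP-1 motif TGANTCA was found in 2 of the 7 (Anxa2 and S100a11), against 7.81% of all 32851 promoters of the table. TATAAA was found in 3 (Anxa1, S100a4 and, outside the stretch shown, Anxa2) against 13.6%, GGGCGG in 2 (Anxa2 and S100a11) against 35.7%, the TEAD motif GGAATG in 1 (Anxa1) against 14.7%, and the CArG box in 1 (Anxa5) against 1.63%. The S100a1 and S100a13 gap holds none of the 3 motifs marked in capitals. These matches describe letters in a window, and binding was not measured in these libraries.

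In all, 19125 cells were deposited with 228647754 unique molecular identifiers (UMIs), each standing for 1 captured transcript molecule. After the study's limits on cells were applied, 18351 cells remained, of which 8550 came from 37°C and 9801 from 39°C, and each library had 985 to 3494 cells and 17166686 to 29633818 UMIs per library. Any pair of libraries shared at most 5 barcodes. Cells assigned to G1 made up 24.1% ± 3.41 (SD, n = 4) of kept cells at 37°C and 84.3% ± 1.22 at 39°C, so each member was also compared among G1 cells alone. These shares depend on the scoring, and with phases scored within each library they were 38.1% to 42.5% at 37°C and 54.1% to 58.8% at 39°C. Markers of other cell types moved with temperature too. The summed level of 8 mesenchymal markers was 1752 to 1819 CPM (counts in 1000000 UMIs) at 37°C and 824 to 857 at 39°C, with 4 of the 6 tested lower and 0 higher. Over all genes tested, 30.5% were lower. Most of this sum was Col1a1 (mean 1027 and 575 CPM) and Col1a2 (678 and 182 CPM). The summed level of 8 neuronal markers was 165 to 194 and 79.7 to 98.1 (Elavl4 and Dcx at 0), with 3 of the 5 tested lower and 0 higher. Most of it was Stmn2 (mean 112 and 52.9 CPM) and Map2 (51.4 and 29.7 CPM). Tubb3 was lower in all kept cells but not among G1 cells (4.78 and 6.19 CPM). The 8 neural progenitor markers summed to 486 to 595 and 178 to 196 (Hes5 at 0), but only 3 could be tested and they went different ways, Nes falling from 467 to 108 CPM while Sox2 rose from 55.4 to 76.5 CPM and the very rare Msi1 also passed as higher. The 4 endothelial markers summed to at most 0.757 CPM (Cdh5 and Cldn5 at 0), the 5 oligodendrocyte markers to 2.97 to 3.52 and 4.70 to 5.45 (Mog, Sox10 and Olig2 at 0), the 5 astrocyte markers to 14.4 to 21.5 and 15 to 17.2, and the 6 immune markers to 21.3 to 24.5 and 29.8 to 39.2. Their part in the results on annexins and S100 genes was not tested.

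To ask how the members differed between the temperatures, the UMIs of all kept cells in a library were added up. They were compared with edgeR's quasi-likelihood test over 15810 genes, with Benjamini-Hochberg adjustment. All 10 members passed an adjusted p of 0.05 with less transcript at 39°C, a direction and threshold met by 30.5% of the genes tested. Their median log2 fold change (39°C over 37°C) was -0.72, against 0.02 over all genes. The members were chosen with earlier results of these data known, so these comparisons with all genes are descriptions and not independent tests. Annexin and S100 genes outside the 10, given below, did not all go this way. The 10 members together took up 1.36% ± 0.0902 (SD, n = 4) of all UMIs at 37°C and 0.872% ± 0.0640 at 39°C. The 5 S100 members held 1.06% and 0.696% of UMIs and the 5 annexin members 0.291% and 0.176%. Other expressed genes of both families, such as Anxa8 and S100a13, are not in these shares. In 9 of the 10 members no 39°C library reached the level of any 37°C library, Anxa3 being the one that overlapped, and 28% of all genes were below in this way. At the study's own stricter limits (0.01 for the adjusted p and 1.5 for the size of the log2 fold change, met in this direction by 3.62% of genes), S100a4 was called and the other 9 were not. Summed counts cannot tell fewer cells with a transcript from less transcript per cell. The single-cell values below describe both but do not separate them, since the share of cells with a UMI falls with the mean count alone. The labels do not say whether replicates were separate cultures, so p-values measure the spread between these libraries, which may be technical.

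**Figure D1:**
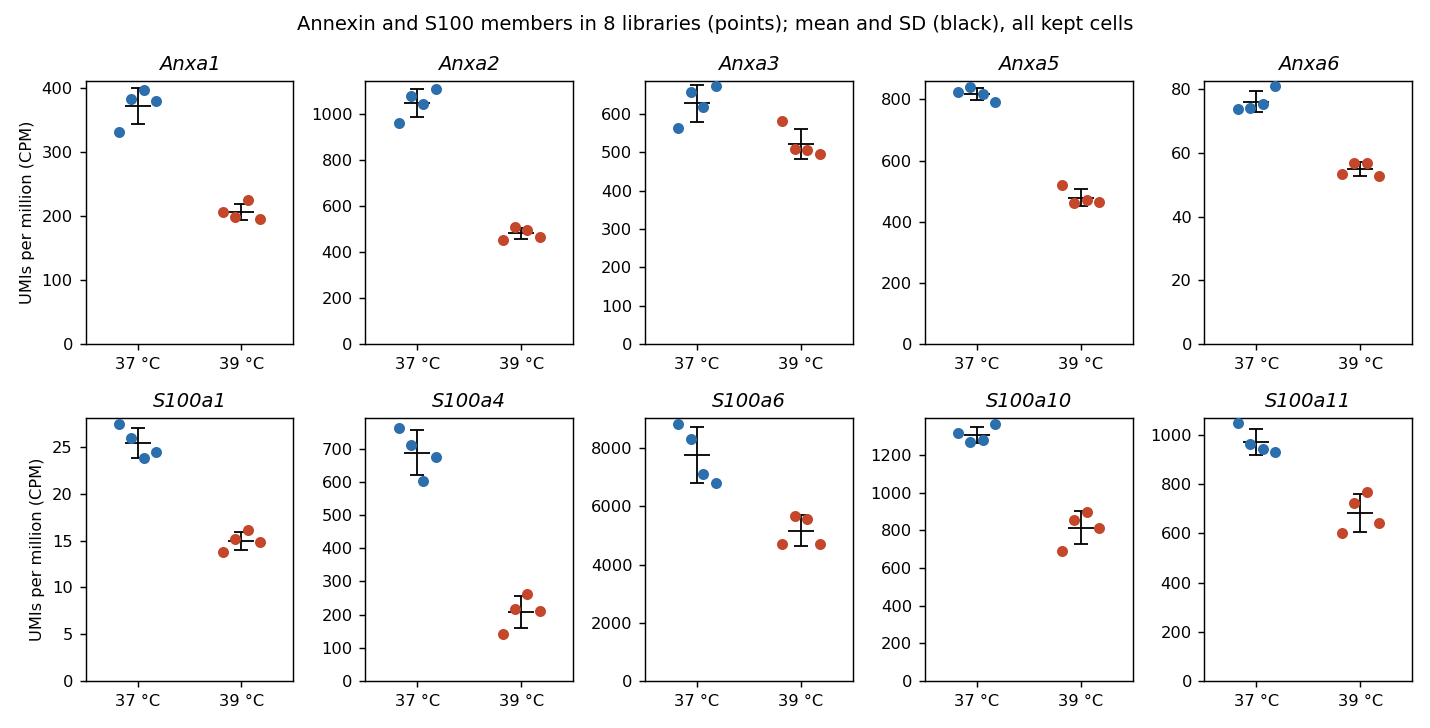
Level of each of the 10 members in every library (CPM, axes from 0), with 1 point per library and the mean and SD of the 4 libraries at each temperature in black. The 39°C points lie below all 37°C points in every gene except Anxa3, where 39°C replicate 1 (580 CPM) lies above 37°C replicate 1 (563).

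S100a4 showed the lowest ratio of 39°C to 37°C among the members. The protein, also known as metastasin, binds non-muscle myosin heavy chains and is linked to cell motility. Its level (in CPM, from 3′-end counts that are not scaled by transcript length) was 762, 711, 602 and 676 in 37°C replicates 1 to 4 and 143, 215, 262 and 209 in 39°C replicates 1 to 4. The groups were far apart, the highest 39°C library lying below the lowest 37°C library. The means were 688 ± 67.3 and 207 ± 49.1 (SD, n = 4), and the fold change was -1.73 ± 0.120 (log2 ± SE, edgeR adjusted p = 2.45e-10), or 69.8% less at 39°C. S100a4 went from rank 187 to rank 633 of all genes by mean level. Its annotated span overlaps that of the gene model Gm42674 on the same strand, which had too few counts to be tested.

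S100a6 (calcyclin) was the most abundant member, at rank 5 of all genes at 37°C and rank 15 at 39°C. Its level was 8841, 8331, 7101 and 6816 CPM in the 37°C replicates and 4694, 5685, 5556 and 4724 CPM in the 39°C replicates. The 37°C libraries were spread more widely than the 39°C libraries, and the groups did not overlap. The fold change was -0.59 ± 0.0874 (log2 ± SE, edgeR adjusted p = 7.77e-06), which is 33.5% less at 39°C, and in share of UMIs (0.768% and 0.522%) no other member differed by as much. S100a6 is a partner of the ubiquitin ligase adaptor CACYBP, whose gene (Cacybp) fell by 0.73 on the log2 scale (edgeR adjusted p = 9.54e-11, mean 411 against 248 CPM).

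S100a10 and S100a11 are the S100 proteins best known for gripping annexins, S100a10 with Anxa2 and S100a11 with Anxa1. S100a10 was at 1318, 1267, 1278 and 1364 CPM in the 37°C replicates and at 690, 854, 898 and 815 CPM in the 39°C replicates, with a fold change of -0.68 ± 0.0687 (log2 ± SE, edgeR adjusted p = 4.73e-08). S100a11 was at 1047, 963, 944 and 932 CPM and at 600, 724, 768 and 641 CPM, with a fold change of -0.51 ± 0.0697 (edgeR adjusted p = 3.01e-06). In both genes 39°C replicate 1 was the lowest library and 39°C replicate 3 the highest of its temperature. A processed pseudogene of S100a11 lies on chromosome 12 and has no row of its own in the matrices. It overlaps the gene model Gm49321 on the same strand, which is in the matrices and whose counts are not given here. Reads from such a copy were therefore not told apart. S100a1, best known from heart and skeletal muscle, was the rarest member at 27.5, 26, 23.8 and 24.5 CPM against 13.8, 15.1, 16.2 and 14.8 CPM. Its groups did not overlap despite the low level, and its fold change was -0.76 ± 0.0616 (log2 ± SE, edgeR adjusted p = 2.32e-09).

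Among the annexins, Anxa2 had the lowest ratio of 39°C to 37°C. The protein joins S100a10 at the plasma membrane in a complex that binds plasminogen and actin. Anxa2 was at 963, 1078, 1043 and 1108 CPM in the 37°C replicates and at 453, 508, 498 and 467 CPM in the 39°C replicates. Each group was narrow (SD 62.6 and 25.8 around means of 1048 and 481 CPM), and the fold change was -1.12 ± 0.0583 (log2 ± SE, edgeR adjusted p = 3.19e-12), or 54.1% less at 39°C. The minus-strand gene model Gm16144 overlaps the Anxa2 locus and had too few counts to be tested.

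Anxa1, which limits inflammation as a glucocorticoid-induced protein, was at 332, 382, 396 and 379 CPM in the 37°C replicates and at 206, 198, 224 and 195 CPM in the 39°C replicates (log2 fold change -0.85 ± 0.0599, edgeR adjusted p = 2.79e-10). Anxa5, whose protein binds the phosphatidylserine exposed on dying cells, was at 825, 840, 816 and 791 CPM and at 519, 463, 472 and 464 CPM (-0.77 ± 0.0528, edgeR adjusted p = 1.88e-10). Both genes separated the temperatures with room to spare. Anxa6, the annexin with a doubled set of core repeats, was the rarest of the 5 at 73.8, 74.1, 75.3 and 81.1 CPM against 53.5, 56.9, 56.7 and 52.9 CPM. Its fold change was -0.47 ± 0.0474 (edgeR adjusted p = 5.26e-08). The lincRNA 1500015L24Rik overlaps Anxa1 on the opposite strand and had too few counts to be tested.

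Anxa3, which acts in membrane fusion of granules and endosomes, was the weakest case. It stood at 563, 656, 618 and 671 CPM in the 37°C replicates and at 580, 507, 505 and 495 CPM in the 39°C replicates. The first library of each temperature crossed over, since 39°C replicate 1 lay above 37°C replicate 1. The fold change was -0.27 ± 0.0635 (log2 ± SE, edgeR adjusted p = 0.00121), or 16.8% less at 39°C. As a result the order of the 5 annexin members by mean level changed. At 37°C Anxa3 was the third of the 5 (rank 200 of all genes, below Anxa2 at 127 and Anxa5 at 153). At 39°C Anxa3 was the first of the 5 (rank 212, against 227 for Anxa2 and 228 for Anxa5). At 39°C the mean levels of Anxa2 (481 CPM), Anxa5 (479 CPM) and Anxa3 (522 CPM) came from overlapping ranges of libraries, as did those of Anxa1 (206 CPM) and S100a4 (207 CPM).

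To see whether the shift in phase went along with these differences, G1 cells were compared alone (14712 genes, 22.4% of them lower at an adjusted p under 0.05). In G1 cells 9 of the 10 members were lower at 39°C, with a median over the 10 of -0.70 against 0.04 over all genes. S100a4 stood at -1.81 ± 0.106 (log2 ± SE, edgeR adjusted p = 3.19e-12) and was again the member past the study's limits, which 1.5% of genes met in this direction. Anxa2 (-0.98 ± 0.0562, edgeR adjusted p = 2.23e-12) and Anxa5 (-0.82 ± 0.0595, edgeR adjusted p = 1.09e-10) followed. Anxa3 did not pass, at -0.04 ± 0.0617 (edgeR adjusted p = 0.627), with 490, 563, 521 and 520 CPM in the G1 cells of the 37°C replicates and 555, 481, 477 and 472 in those of the 39°C replicates. This value rests on how phases were assigned: when cells were scored within each library, Anxa3 was at -0.21 (edgeR adjusted p = 0.00881). Cells in S (13740 genes, 23.4% lower) gave 9 lower members and cells in G2M (13802 genes, 16.5% lower) gave 10, although few 39°C cells were assigned to these phases (115 to 423 to S and 29 to 187 to G2M per library). Anxa3 was at 0.08 in S cells (edgeR adjusted p = 0.344) and at -0.27 in G2M cells (edgeR adjusted p = 0.0188).

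**Figure D2:**
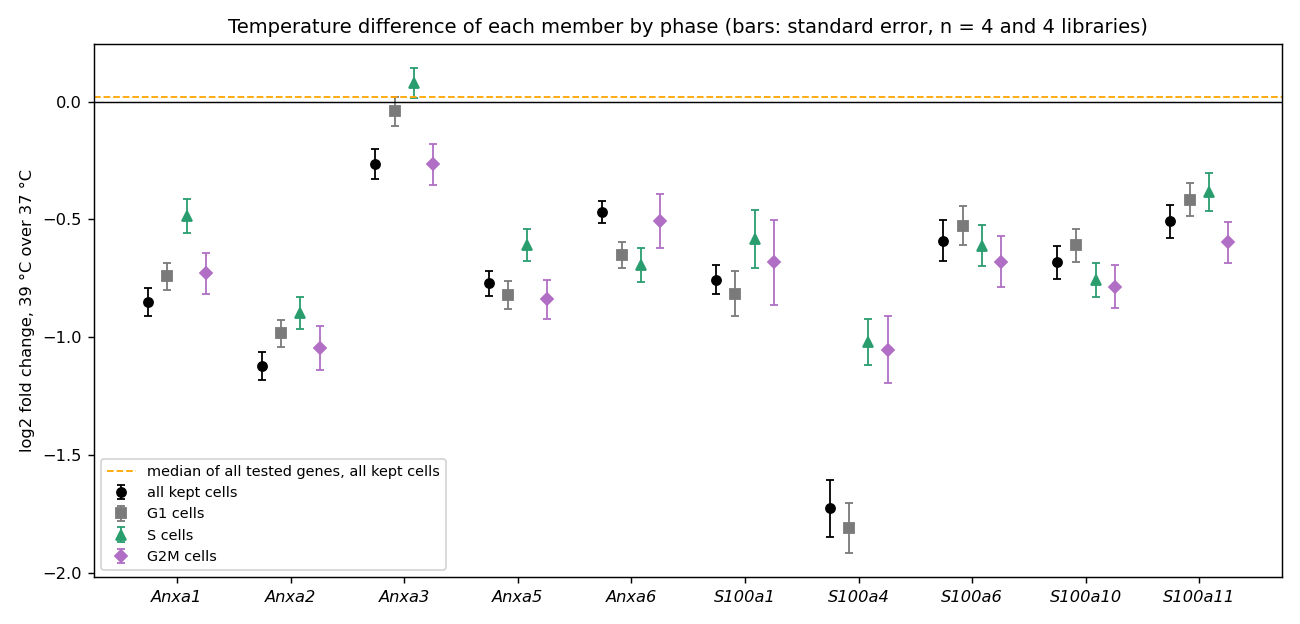
Log2 fold change (39°C over 37°C, edgeR, error bars 1 SE) of each member over all kept cells and within cells assigned to G1, S and G2M. S100a4 lies at -1.81 in G1 cells and near -1 in S and G2M cells, while Anxa3 lies close to 0 in G1 and S cells.

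The size of the S100a4 difference depended on the phase. In the G1 cells S100a4 was at 702, 670, 621 and 644 CPM in the 37°C replicates and at 127, 191, 230 and 184 in the 39°C replicates. In the S cells it was at 831, 739, 630 and 727 and at 260, 393, 429 and 357. In the G2M cells it was at 779, 734, 592 and 656 and at 156, 286, 493 and 324, the lowest of these resting on 77 UMIs in 29 cells. Every 39°C library held more S100a4 in its S cells than in its G1 cells, and the G2M cells of each 39°C library also exceeded its G1 cells. In a model over libraries and phases (14172 genes), S100a4 was higher in S than in G1 cells by 0.97 at 39°C and by 0.15 at 37°C on the log2 scale. The difference between these steps was 0.83 ± 0.0577 (SE, edgeR adjusted p = 4.06e-19), and for G2M against G1 it was 0.78 ± 0.0693 (edgeR adjusted p = 1.37e-14). The step from G1 to G2M at 39°C was uneven between libraries, from 127 to 156 CPM in replicate 1 but from 230 to 493 in replicate 3. The SE of the model does not show this unevenness, so the G2M value is less firm than its p-value. A change of temperature effect between S and G1 passed in 9.95% of genes, and between G2M and G1 in 7.06%. In S cells the temperature difference of S100a4 was -1.02 ± 0.0966 and in G2M cells -1.05 ± 0.141, both past the adjusted threshold (edgeR adjusted p = 4.19e-10 and 2.18e-07).

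Most members were also higher in S than in G1 cells. At 37°C, 8 of the 10 passed as higher in S (background 21.2%) and 1 was lower (background 23.8%). Anxa3 (0.45), Anxa2 (0.33) and Anxa1 (0.24) came first on the log2 scale, S100a4, S100a11, Anxa5, S100a6 and S100a10 followed between 0.15 and 0.08, and Anxa6 was lower (-0.26). At 39°C, 6 members were higher in S cells (background 18%), namely S100a4, Anxa3 (0.61), Anxa1 (0.54), Anxa2 (0.46), Anxa5 (0.37) and S100a11 (0.20), and Anxa6 was again lower (-0.27, background 19.3%). The temperature effect of 4 members differed between S and G1 cells, which besides S100a4 were Anxa1 (0.30 ± 0.0493, edgeR adjusted p = 4.51e-06), Anxa5 (0.25 ± 0.0487, edgeR adjusted p = 0.000105) and Anxa3 (0.16 ± 0.0445, edgeR adjusted p = 0.00722). All 4 differences are positive. For S100a4, Anxa1 and Anxa5 the loss at 39°C was thus smaller in S than in G1 cells, while Anxa3 passed in neither phase alone.

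G2M cells followed another order. At 37°C 4 members were higher in G2M than in G1 cells (background 20.8%), Anxa3 by 0.24, Anxa1 by 0.16, and S100a11 and Anxa2 by 0.09, while Anxa6 (-0.37) and Anxa5 (-0.23) were lower (background 22.7%). S100a4 was at 0.06 and did not pass (edgeR adjusted p = 0.168). At 39°C S100a4 (0.84) and Anxa1 (0.22) were higher (background 12.5%), and Anxa5 (-0.21), S100a6 (-0.12) and S100a10 (-0.12) were lower (background 14%). Anxa5 was therefore highest in S and lowest in G2M cells at both temperatures: in the 37°C replicates it was at 989, 913, 911 and 881 CPM in S cells and at 669, 763, 745 and 726 in G2M cells, and in the 39°C replicates at 685, 616, 577 and 555 and at 445, 408, 376 and 402. The temperature effect differed between G2M and G1 cells for S100a4 and, with a smaller size, for Anxa3 (-0.18), S100a11 (-0.16) and S100a10 (-0.15), whose loss was larger in G2M cells (edgeR adjusted p = 0.0193, 0.0194 and 0.0305). This count of 4 became 7 with phases scored within each library, 1 with library totals only, and 2 without 37°C replicate 2 or 37°C replicate 3. With phases scored within each library, Anxa2 at 37°C (-0.0265) and Anxa1 at 39°C (-0.0444) were no longer higher in G2M cells.

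**Figure D3:**
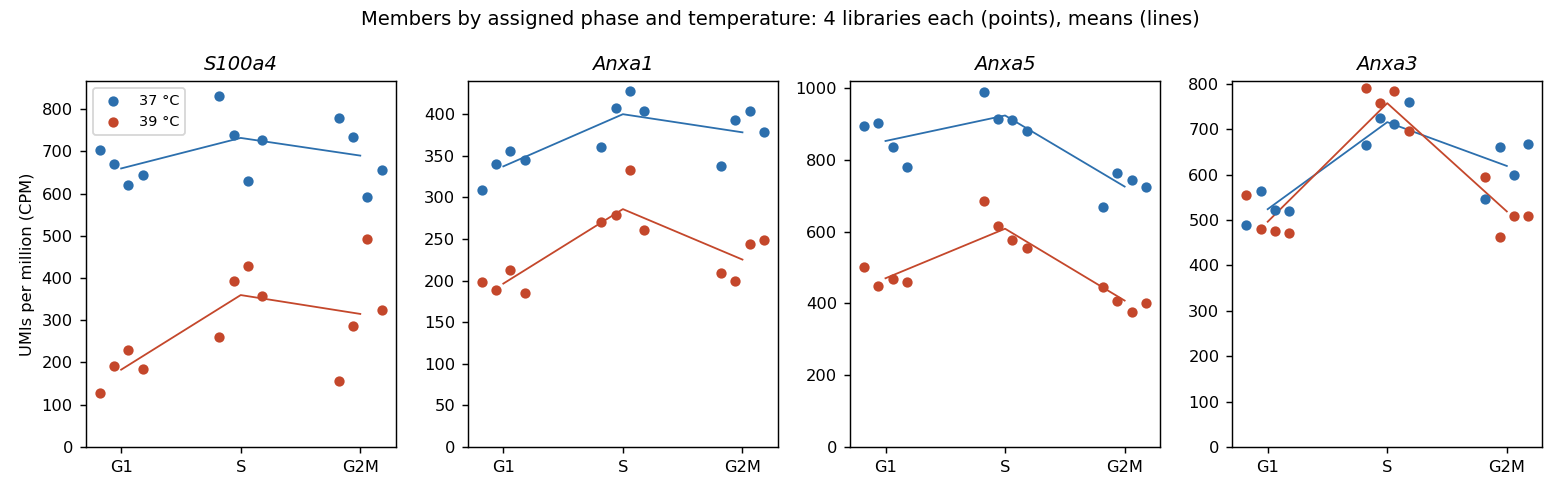
Level of S100a4, Anxa1, Anxa5 and Anxa3 (CPM, axis from 0) in the G1, S and G2M cells of each library, with 1 point per library and lines joining the means of 4 libraries. At 39°C the S100a4 mean is 183 in G1 and 360 in S cells, and Anxa5 is higher in S than in G2M cells in all 8 libraries.

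The balance between partners was asked as a ratio of levels in each library. S100a10 per Anxa2 was 1.37, 1.17, 1.22 and 1.23 in the 37°C replicates and 1.52, 1.68, 1.80 and 1.75 in the 39°C replicates, with means of 1.25 ± 0.0832 and 1.69 ± 0.120 (SD, n = 4). The 39°C libraries were all above the 37°C libraries, a two-sided exact permutation p of 0.029, which is the smallest that 4 against 4 allows, and an adjusted p of 0.0857 over the 3 ratios computed. The same ratio among G1 cells was 1.37 ± 0.0784 and 1.77 ± 0.141. S100a11 per Anxa1 overlapped between the temperatures, at 2.63 ± 0.356 and 3.32 ± 0.311 (exact permutation p = 0.0571, adjusted p = 0.0857). The 5 S100 genes held 3.67 ± 0.498 times the level of the 5 annexins at 37°C and 3.95 ± 0.436 times at 39°C (exact permutation p = 0.371), a difference smaller than the spread between libraries.

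Cells were then thinned to 3000 UMIs each, so that libraries of unequal depth could be compared cell by cell. This left out 215 and 579 shallower cells at 37°C and 39°C, and 967 to 3128 cells per library remained. The share of cells with at least 1 UMI of S100a4 was 73.1%, 72.6%, 67.4% and 73.7% in the 37°C replicates and 24.4%, 30.2%, 34.9% and 30.6% in the 39°C replicates. The drop showed in the share of cells with a UMI, which a lower mean alone would also reduce. That mean was 2.20 UMIs per cell in 37°C replicate 1 and 0.413 in 39°C replicate 1. The upper tail moved as well: the 90th percentile was 4 to 5 UMIs per cell at 37°C and 1 to 2 at 39°C, while single cells still held up to 23 UMIs at 39°C. Without thinning, where median UMIs per cell ranged from 9839 to 15413 at 37°C and from 6676 to 16665 at 39°C, the shares were 88.0% to 93.8% and 43.6% to 57.5%. The line holds no cell type that should lack these genes, so a background share from free RNA could not be given.

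Over all members, 9 of 10 had a lower share of cells with a UMI in every 39°C library than in any 37°C library (two-sided exact permutation p = 0.029 each, adjusted p = 0.0317), a pattern met by 27.4% of the 10245 genes compared. Anxa2 went from 85.9% to 91.6% of cells at 37°C to 59.6% to 65.8% at 39°C. Anxa1 went from 56.7% to 63.7% to 40.7% to 45.4%, and Anxa5 from 76.1% to 79.4% to 63.4% to 68.1%. Anxa3, whose summed level overlapped, had 77.5% to 81.7% of cells at 37°C and 71.1% to 76.3% at 39°C. S100a10 (95.6% to 96.3%, then 81.8% to 87.4%) and S100a11 (90.4% to 91.7%, then 77.6% to 83.6%) were nearly universal at 37°C. The rare members Anxa6 (17.4% to 19.9%, then 13.1% to 15.3%) and S100a1 (5.49% to 7.41%, then 3.31% to 4.16%) were seen in few cells at this depth. S100a6, the most abundant member, was found in nearly every cell at both temperatures (at least 99.7%), so its share could hardly fall. Its loss showed in the UMIs per cell, with a median of 19 to 24 UMIs at 37°C and 13 to 15 at 39°C. Among G1 cells 8 members kept separate ranges, the exceptions being S100a6 and Anxa3, and without thinning 3 of the 9 did (Anxa2, S100a1 and S100a4), while S100a6, which overlapped after thinning, was then separate.

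S100a4 was also the member most unevenly spread over cells at 39°C. Its variation beyond Poisson counting noise, as a coefficient of variation, was 0.879, 0.876, 0.973 and 0.744 in the 37°C replicates and 1.74, 1.70, 1.77 and 1.76 in the 39°C replicates, and among G1 cells 0.860 to 1.26 and 1.55 to 1.88. The same coefficient was also higher at 39°C in most other members, from 0.391 to 0.465 up to 0.691 to 0.837 in Anxa2, from 0.382 to 0.521 up to 0.582 to 0.765 in Anxa1, from 0.924 to 0.992 up to 1.05 to 1.21 in Anxa5 and from 0.318 to 0.370 up to 0.428 to 0.486 in S100a6. Anxa3, S100a10 and S100a11 were separate in the same direction, and the rare Anxa6 and S100a1 overlapped. The share of all genes with such a rise was not computed, so the rise cannot be called particular to the members. The ratio of variance to mean, which is 1 for Poisson counts, moves with the mean: for S100a4 it was 2.09 to 2.70 at 37°C and 2.24 to 3.24 at 39°C, overlapping. Of the 10 members, 3 did not overlap in this ratio. Anxa5 was lower at 39°C (3.22 to 3.54, then 2.68 to 3.20, background 3.5%), the other direction from its coefficient of variation, and Anxa2 (1.46 to 1.57, then 1.68 to 1.90) and Anxa3 (1.27 to 1.36, then 1.46 to 1.63) were higher (background 3.69%). After adjustment over the 10 members these did not pass (exact permutation p = 0.029 each, adjusted p = 0.0952), and 1 of the 10 (Anxa3) kept separate ranges among G1 cells and 0 without thinning. The difference for Anxa2 turned sign in both cases (-0.0036 among G1 cells and -1.27 without thinning). Anxa5 had the highest ratio of the annexins at both temperatures, with single cells of up to 26 UMIs against a median of 1 to 2.

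Within single libraries the S100 genes varied together more than the annexins did. Correlations were computed over the thinned cells of each library on log values and averaged over the 8 libraries, as a description: cells of a library share their preparation, and sparse counts pull r toward 0. The 10 pairs of S100 genes had a median r of 0.17, with 6 pairs over 0.1, the 10 annexin pairs a median of 0.02 with 3 over 0.1, and the 25 mixed pairs a median of 0.03 with 7 over 0.1. S100a6 with S100a10 was highest (0.27), followed by S100a6 with S100a11 (0.25) and S100a4 with S100a6 (0.25). Anxa2 went with the S100 genes, at 0.23 with S100a6 and 0.19 with its partner S100a10, and Anxa3 with Anxa5 (0.15) was the first pair among annexins. In G1 cells alone the first 3 pairs were the same, at 0.28 for S100a4 with S100a6, 0.27 and 0.26. Anxa5 ran slightly against the S100 genes at 37°C (-0.10 with S100a10 and -0.09 with S100a4) and was near 0 with them at 39°C (0.00 and 0.01).

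**Figure D4:**
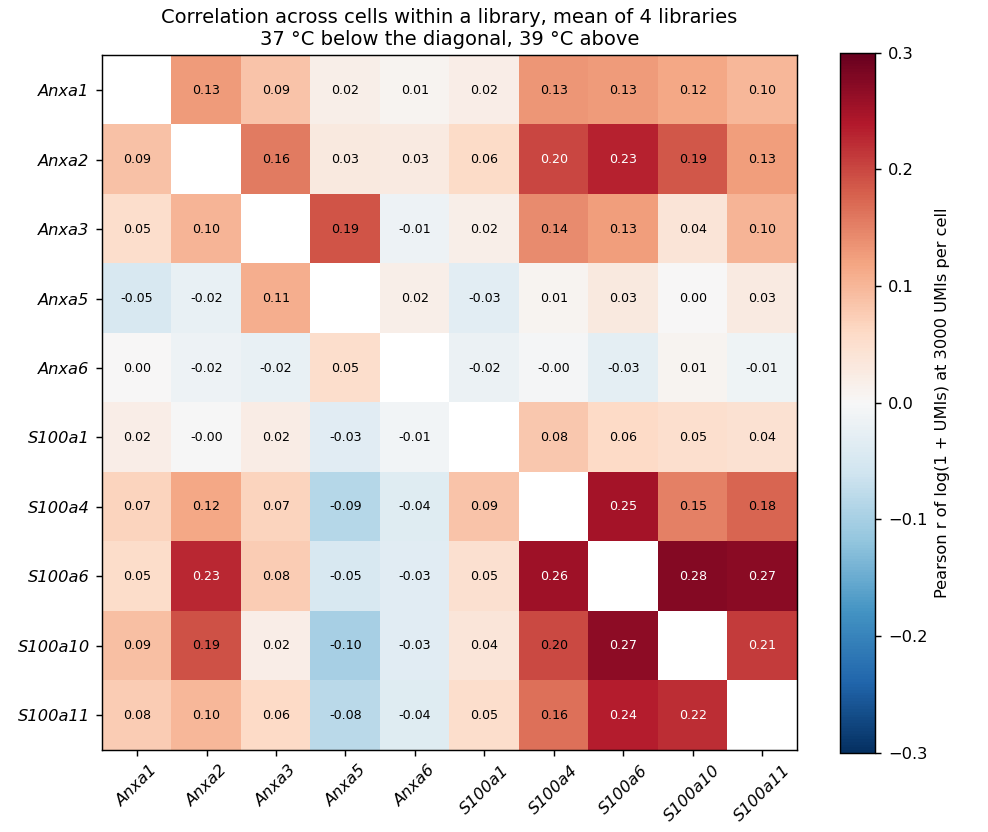
Pearson r over cells for every pair of the 10 members, averaged over the 4 libraries of a temperature (log of 1 plus counts thinned to 3000 UMIs per cell, 37°C below the diagonal and 39°C above, colour scale in units of r). S100a6 with S100a10 stands at 0.27 at 37°C and 0.28 at 39°C, and the S100 block is redder than the annexin block apart from the rare S100a1.

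The genes whose pattern over cells was most like each member were sought among 1741 genes seen in at least 20% of cells in every library. Lgals1, which encodes a galectin, came first for S100a6 (0.35), Anxa2 (0.30) and S100a4 (0.29). Tspo, a protein of the outer mitochondrial membrane, was in the first 3 for S100a6 (0.32), S100a4 (0.25), S100a10 (0.24), S100a11 (0.21) and Anxa1 (0.13). Anxa2 was next most like Sparc and Tpm1 (both 0.26). Anxa3 was most like the actin genes Actb (0.22) and Actg1 (0.16), Anxa1 most like Myl6 (0.14), a myosin light chain, and Anxa5 most like Tmsb4x (0.19), a thymosin, ahead of Pdgfa and Xist (both 0.18). For Anxa6 (Col8a1, 0.10) and S100a1 (S100a4, 0.08) no gene reached more than a weak value.

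The rest of the annexin family was mixed in direction. Of 7 further annexin genes listed, 6 were in the matrices and 5 could be tested, of which 3 were higher and 2 lower at 39°C (median 0.15 against 0.02 over all genes, with 31.5% of genes higher). Anxa8 was at 318, 301, 289 and 290 CPM in the 37°C replicates and at 644, 636, 615 and 582 CPM in the 39°C replicates. This is a gain of 1.05 ± 0.0524 (log2 ± SE, edgeR adjusted p = 1.88e-12) with no overlap, and 0.86 ± 0.0554 among G1 cells (edgeR adjusted p = 1.40e-11). At 39°C Anxa8 thus lay above all 5 annexin members in mean level. Anxa7 rose by 0.38 (75.2 to 98.0 CPM) and Anxa11 by 0.15 (29.0 to 32.2 CPM), and neither passed among G1 cells (edgeR adjusted p = 0.238 and 0.716). Anxa4 fell by 0.36 on the log2 scale (94.0 to 73.1 CPM) and the rare Anxa9 fell by 0.64 (1.54 to 1.01 CPM).

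Of 11 further S100 genes, 9 were tested, of which 3 were lower, 0 higher and 6 did not pass (median -0.07), a share lower near the 30.5% of all genes. S100a16 was at 44.1, 50.6, 44.7 and 50.6 CPM in the 37°C replicates and at 16, 19.99, 19.7 and 19.7 CPM in the 39°C replicates (log2 fold change -1.32 ± 0.0675, edgeR adjusted p = 2.52e-12). S100a3 fell from 10.9 to 5.89 CPM (-0.87, and -0.50 among G1 cells), and S100a5 from 0.695 to 0.218 CPM (-1.68 ± 0.332), the last at a level of few counts per library. Along chromosome 3, 14 S100 genes were in the matrices and 13 were tested, of which 8 were lower, 0 higher and 5 did not pass. Over all genes tested, 30.5% were lower and 31.5% higher. The lower genes are the 5 S100 members, already described, and S100a16, S100a3 and S100a5, so this count adds no gene to those given above. The lower genes are interleaved with others that did not pass: S100a13, which starts across the 42 bp gap from S100a1, was at 290, 266, 229 and 221 CPM and at 222, 282, 290 and 250 CPM (0.05 ± 0.0844, edgeR adjusted p = 0.602), while S100a1 was at -0.76. The other 4 that did not pass (S100a14, S100a2, S100a7a and S100a8) had mean levels under 3 CPM. The span of S100a3 contains S100a2, so their counts may be hard to separate.

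**Figure D5:**
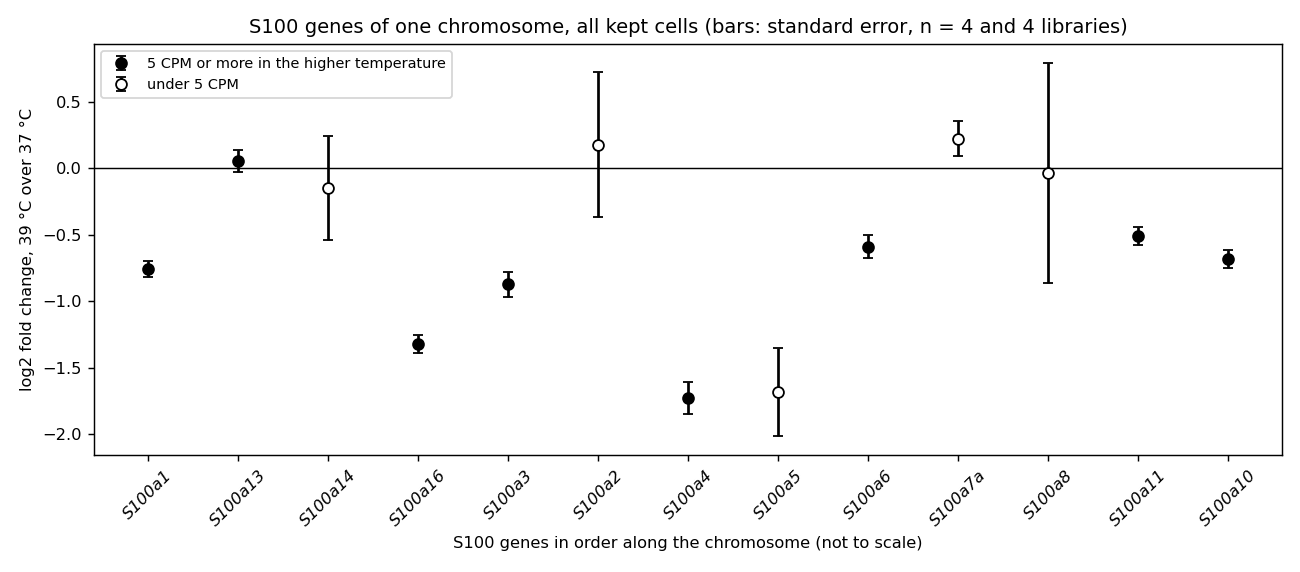
Log2 fold change (39°C over 37°C, edgeR, error bars 1 SE) of the 13 tested S100 genes of chromosome 3 in their order along the chromosome, evenly spaced, with open points for genes under 5 CPM at both temperatures. The points of S100a1, S100a16, S100a3, S100a4, S100a5, S100a6, S100a11 and S100a10 lie below 0 past the adjusted threshold, and S100a13 lies at 0.05.

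Genes that work with these families were taken from 3 lists, whose counts stand beside 31.5% of all genes higher and 30.5% lower. Of 17 binding partners and receptors 13 were tested, with 3 higher, 6 lower and 4 not passing (median -0.11). Ahnak2, a giant scaffold protein related to the Anxa2 and S100a10 partner AHNAK, rose by 1.22 ± 0.0503 (72.4 to 169 CPM, edgeR adjusted p = 1.09e-13), while Ahnak itself was at -0.12 ± 0.0513 (869 to 799 CPM, edgeR adjusted p = 0.0479) and at -0.25 among G1 cells. S100pbp is named for binding S100P, which is not among the S100 genes listed here. S100pbp rose by 0.24 (13.8 to 16.2 CPM), a call lost among G1 cells (0.04, edgeR adjusted p = 0.745). The non-muscle myosin heavy chains Myh10 (-0.99, 107 to 53.7 CPM) and Myh9 (-0.49, 740 to 525 CPM), both known partners of S100a4, fell, and among G1 cells Myh10 was at -0.43. Of 16 genes of plasma membrane repair 15 were tested, with 2 higher, 10 lower and 3 not passing (median -0.32). Dysf, which encodes dysferlin, fell most of those named (-1.59 ± 0.134, 6.25 to 2.08 CPM), the caveolar genes Cavin1 (-0.67) and Ehd2 (-0.61) also fell, and Vps4b, an ESCRT ATPase, rose by 0.16 (55.0 to 61.3 CPM), which did not pass among G1 cells (edgeR adjusted p = 0.104). Of 17 other EF-hand calcium sensors all were tested, with 3 higher, 12 lower and 2 not passing (median -0.23). Calm3, which encodes calmodulin (-0.75, 111 to 65.7 CPM), and Sri, which encodes sorcin (-0.65, 194 to 123 CPM), fell, and the neuronal calcium sensors Hpcal1 (0.90, 80.6 to 150.1 CPM) and Ncs1 (0.39, 32.0 to 42.1 CPM) rose, as did Sdf4 (0.16, 65.2 to 72.9 CPM), a calcium-binding protein of the Golgi that did not pass among G1 cells (edgeR adjusted p = 0.188).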

How the data were processed

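Trypsinized SN4741 cells were captured with the Chromium 3′ V3 kit, and the authors aligned the reads to mm10 (the GRCm38 assembly) with Cell Ranger 3.0.1 and deposited 1 matrix of raw UMI counts for each of the 8 libraries, with genes in rows and cells in columns. Cells with over 15% mitochondrial UMIs, under 200 genes or over 6000 genes were left out, as in the study, and doublets were treated by the upper gene limit alone. Groups were taken from the treatment in the labels. The members and the gene lists were chosen with earlier results of these data known.

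Counts were summed per library over kept cells, or over cells of 1 phase (Seurat 5.3.0 CellCycleScoring on all cells together, with no member among the phase genes). Genes averaging 1 count or more over the libraries were tested with edgeR 4.0.16 (R 4.3.3; TMM factors, glmQLFit and glmQLFTest on temperature alone), with Benjamini-Hochberg adjustment over all genes and a threshold of 0.05. Phase differences were fitted with library as a block. CPM use TMM-scaled totals of tested genes. Levels by phase also use scaled totals, with factors of their own, so they differ slightly from CPM in the tests within a single phase. Standard errors are the fold change over the square root of F. The procedure was tested on simulated data. Library values were compared by two-sided exact permutation over 70 assignments (Python 3.11.15, scipy 1.17.1). Beside the members, up to 3 genes that rose and 3 that fell were named per list, those with the largest changes at an adjusted p under 0.05, at least 5 CPM in the higher temperature and no overlap of libraries, and the 3 genes most like each member. A gene that this rule would name is not reported here. Anxa9, S100a5, S100a13, Ahnak and the rare S100 genes of chromosome 3 were named after their values were seen. Depth was 17166686 to 29633818 UMIs per library. Alternatives were other scaling, filters on genes and cells, DESeq2 1.42.0, other phase assignments, other thinning, a replicate block and each library left out. Transcripts of the viral T antigen were not analysed here.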

Additional observations from a re-analysis of the deposited data

Results flagged for a closer look

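Single libraries stood apart from the other 3 of their group in 8 of 86 groups of 4 values checked, and chance alone gives about 1 in 20. The 39°C replicate 1 was high for Anxa3 at 580 CPM in all kept cells (others 495 to 507) and 561 CPM in G1 cells (others 473 to 484), and for Anxa5 at 519 CPM (others 463 to 472). The 37°C replicate 1 was high for S100a11 at 1030 CPM in G1 cells (others 866 to 873) and for its ratio of variance to mean at 1.40 (others 1.29 to 1.30). S100a4 was low in its share of cells with a UMI in 37°C replicate 3 at 67.4% (others 72.6% to 73.7%), and in its ratio of variance to mean in 37°C replicate 4 at 2.09 (others 2.60 to 2.70). The ratio of S100a1 was high in 39°C replicate 4 at 1.09 (others 1.03).

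The temperature effect differed between phases in 8 of 20 tests of a difference (edgeR, log2 scale, adjusted over all genes, 4 libraries per temperature). S minus G1 gave 0.83 for S100a4, 0.30 for Anxa1, 0.25 for Anxa5 and 0.16 for Anxa3. G2M minus G1 gave 0.78 for S100a4, -0.18 for Anxa3, -0.16 for S100a11 and -0.15 for S100a10. The S100a4 differences passed in every alternative run. That of Anxa3 between S and G1 missed the threshold in 7 alternatives, and those of S100a10 and S100a11 in 5 and 4.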

How the results depend on the processing

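Of 206 repeats of the results that answer a comparison, 198 kept their direction and call. The 10 lower members in all kept cells stayed at 10 with the replicate block, and the block left 9 among G1 cells. Same-numbered libraries deviated together no more than others did (r -0.0341 to 0.0498, against -0.0568 to 0.0511). No sign of pairing by number was thus seen, but so few libraries cannot show that they were unpaired. The paired exact permutation p of S100a10 per Anxa2 was 0.125, the smallest it can be. With phases scored within each library, 7 members in place of 4 differed in temperature effect between G2M and G1, and with library totals only 1 did; leaving out 1 library gave 2 to 5, with 2 without 37°C replicate 2 or without 37°C replicate 3. The count of members with separate shares of cells went from 9 to 4 with no thinning, of which 3 are among the 9. The 3 members with separate ratios of variance to mean became 0 with no thinning, 1 among G1 cells, and 3 to 5 when 1 library was left out (5 without 39°C replicate 4).

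Some values changed sign. With phases scored within each library, G2M against G1 was -0.0265 for Anxa2 and -0.0015 for S100a4 at 37°C, and -0.0444 for Anxa1 at 39°C. The difference in variance over mean became -1.27 for Anxa2, -0.577 for S100a4 and -12.8 for S100a6 with no thinning, and -0.0036 for Anxa2, -0.546 for S100a4 and -0.0334 for S100a6 among G1 cells. The cause was not tested. The fold change of S100a4 ranged from -1.86 to -1.60, and that of Anxa3 from -0.34 to -0.21 in all kept cells and from -0.21 to -0.003 in G1 cells. S100a1 and the few 39°C cells assigned to G2M limit what depth can show.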
